A study of Mus musculus with 17 samples.

Results

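This section describes 10 genes that mark monocytes and macrophages, Csf1r, Adgre1, Cd68, Lyz2, Cx3cr1, Ccr2, Aif1, Mpeg1, Cd14 and Fcgr1, in the diaphragm of mice with and without tumors. They were chosen by symbol, with earlier results of these data known, and all 10 were found among the 47643 genes listed. The values are TPM, a relative transcript abundance in which the reads of a gene are divided by its length and each mouse is scaled to the same sum. TPM can therefore be compared between genes. Between mice it compares shares of the total, so a fall in abundant RNA raises the other genes.

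All 17 mice were male C57BL/6J animals of 4 months. Control mice (n = 5) had no tumor and received mock injections. Control + rFibcd1 mice (n = 5) had no tumor and received rFibcd1, a recombinant C-terminal fragment of Fibcd1, a protein with a fibrinogen-like domain. LLC mice (n = 3) carried tumors from Lewis lung carcinoma cells, a line derived from a mouse of this strain, injected under the skin of both flanks, and received mock injections. LLC + rFibcd1 mice (n = 4) carried the tumors and received rFibcd1. All injections were made into the peritoneal cavity, which the diaphragm borders, and RNA was taken from a portion of the diaphragm muscle freed from its tendons. This is bulk tissue, which besides myofibers can hold vessels, fat, mesothelial lining and leukocytes. The samples are described as biological replicates, and each was sequenced as 1 library. The 10 myofiber markers summed to 49820 to 63920 TPM and none was at 0, which shows skeletal muscle in all 17 mice without telling diaphragm from other muscles.

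Monocytes form in the bone marrow, leave it by way of the chemokine receptor CCR2 and can become macrophages in tissue, where they join macrophages that have been resident since before birth. Survival of both kinds depends on signals through the CSF1 receptor, and the transcription factor PU.1, encoded by Spi1, drives many genes of the lineage. In skeletal muscle, macrophages clear damaged fibers and guide repair, and the serous surface of the diaphragm also faces the macrophages of the peritoneal cavity.

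The regulatory sequence of 3 of the genes is shown because the 10 genes rose and fell together from mouse to mouse, as described further on. RefSeq promoters (GRCm38.p6) matched 7 of the 10 symbols. The 250 bases before the transcript start are given 5′ to 3′ on the strand of the gene for Cd68 (chr11:69666171-69666420, minus strand), Mpeg1 (chr19:12460520-12460769, plus strand) and Fcgr1 (chr3:96293970-96294219, minus strand), 3 windows that hold no GENCODE vM21 exon base. Capitals mark GAGGAA, the core that PU.1 binds, or its reverse complement.
Cd68: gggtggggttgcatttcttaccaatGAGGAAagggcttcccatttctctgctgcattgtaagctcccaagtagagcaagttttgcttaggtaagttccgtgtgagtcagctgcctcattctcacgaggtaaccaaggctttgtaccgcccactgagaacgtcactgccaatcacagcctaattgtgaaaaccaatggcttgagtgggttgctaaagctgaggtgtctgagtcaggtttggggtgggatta
Mpeg1: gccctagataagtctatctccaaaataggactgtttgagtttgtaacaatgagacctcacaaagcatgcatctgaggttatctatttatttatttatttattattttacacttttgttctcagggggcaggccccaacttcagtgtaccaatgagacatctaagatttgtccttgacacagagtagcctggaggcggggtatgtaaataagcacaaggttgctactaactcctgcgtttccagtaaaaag
Fcgr1: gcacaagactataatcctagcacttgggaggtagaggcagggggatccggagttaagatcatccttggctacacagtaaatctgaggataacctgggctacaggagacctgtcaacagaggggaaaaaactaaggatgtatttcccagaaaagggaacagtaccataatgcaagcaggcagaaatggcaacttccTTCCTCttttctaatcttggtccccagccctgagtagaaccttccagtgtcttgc
GAGGAA was searched on both strands and lay in 3 of the 7 windows, those of Cd68, Aif1 and Fcgr1, beside 23.3% of all 32851 promoter windows of that length. The window of Mpeg1 held no match, as did those of Lyz2, Cx3cr1 and Ccr2. GENCODE exons cover all 250 bases of the Cx3cr1 window, 233 of the Ccr2 window, 49 of the Lyz2 window and 16 of the Aif1 window. The windows of Cx3cr1 and Ccr2 are thus mostly exon sequence. TTNNGNAA, a form of the site of the C/EBP factors, lay in 3 of the 7 windows, with 3 matches in Cd68 and 1 each in Lyz2 and Ccr2, beside 36.9% of all windows. These matches describe letters in a window and show no binding.

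The levels of the 10 genes spanned a wide range in tumor-free muscle. In the Control group Lyz2 was highest at 288 ± 86.6 TPM (SD, n = 5), followed by Csf1r at 14.5 ± 2.12 TPM (SD, n = 5) and Cd68 at 9.92 ± 3.08 TPM (SD, n = 5). Mpeg1 at 5.66 ± 1.49 TPM (SD, n = 5), Cd14 at 5.09 ± 1.28 TPM (SD, n = 5) and Adgre1 at 4.62 ± 0.509 TPM (SD, n = 5) differed from each other by less than the largest of their SDs. Ccr2 at 2.39 ± 0.833 TPM (SD, n = 5) and Aif1 at 2.365 ± 0.949 TPM (SD, n = 5) overlapped, as did Fcgr1 at 0.7103 ± 0.121 TPM (SD, n = 5) and Cx3cr1 at 0.621 ± 0.281 TPM (SD, n = 5). From the steps between low TPM values, each TPM was estimated to stand for 23.9 to 26.7 reads per kilobase of gene in each mouse, so Lyz2 rested on 5286 to 46234 reads, Csf1r on 1019 to 4420, and the sparsest genes, Aif1, Cx3cr1 and Fcgr1, on 17 to 232, 19 to 258 and 36 to 128.

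Genes were tested where at least 3 mice reached 1 TPM, which left 13305 genes, with limma on log2(TPM + 1) and p-values adjusted over all of them. All 10 genes were among those tested, but on unequal terms. Cx3cr1 reached 1 TPM in 6 mice, all of them tumor-bearing, and Fcgr1 in 5 mice, 3 of them LLC, so both were kept mainly through the groups in which they are high. Their calls are therefore given apart from those of the other 8 genes, each of which reached 1 TPM in at least 3 tumor-free mice. A log2 change on this scale understates the fold of such low genes.

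With all tumor-bearing mice set against all tumor-free mice, 7 of the 10 genes rose: Csf1r, Cd68, Cx3cr1, Ccr2, Aif1, Mpeg1 and Fcgr1. In that comparison 38.8% of all genes tested were called higher on the TPM scale, a share that fell to 13.7% under quantile normalization, when 5 of the 10 were called. Without Cx3cr1 and Fcgr1 the count was 5 of 8. In a limma fit with no filter, Cx3cr1 had an adjusted p of 0.00219 and Fcgr1 of 0.033 in this comparison. Mpeg1 had the largest change at 1.10 ± 0.26 (SE, adjusted p = 0.00586, limma), and Fcgr1 the smallest at 0.35 ± 0.12 (SE, adjusted p = 0.0239, limma). Adgre1 at 0.53 ± 0.26 (SE, adjusted p = 0.107, limma), Lyz2 at 0.78 ± 0.38 (SE, adjusted p = 0.0992, limma) and Cd14 at 0.48 ± 0.21 (SE, adjusted p = 0.0758, limma) did not pass. The median change of the 10 genes was 0.74, beside 0.13 over all genes. Without Control + rFibcd1 replicate 1, in which several of the genes were far above the rest of the group, all 10 rose, and 43.3% of all genes did. Without LLC replicate 2 the count was 4, beside 35.9% of all genes, and with a score of B cell genes as a covariate it was 1, Cx3cr1, beside 3.46%.

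In mock-injected mice alone, LLC against Control, 7 of the 10 genes rose: Csf1r, Cd68, Cx3cr1, Aif1, Mpeg1, Cd14 and Fcgr1, where 29.7% of all genes were called higher. Without Cx3cr1 and Fcgr1 the count was 5 of 8, and with no filter their adjusted p was 0.0137 and 0.039 in limma. For all 10 genes every LLC mouse was above every Control mouse, which held for 33.6% of all genes tested. The exact permutation test of the rank sums gave the smallest p that 3 against 5 mice allow, 0.0357 (two-sided, unadjusted), for each of the 10. The median change was 0.95, beside 0.16 over all genes. This comparison and the one above share the LLC and the Control mice. The count of 7 depended on single mice: it was 4 without Control replicate 3 and without Control replicate 4, 3 without Control replicate 5, 2 without LLC replicate 1, 4 without LLC replicate 2 and 0 without LLC replicate 3, where 2 mice are left in the group. In those fits, in the same order, 22%, 22%, 20.2%, 13.3%, 31.9% and 0.114% of all genes were called higher. It was 9, all but Ccr2, beside 33.3% of all genes, without Control + rFibcd1 replicate 1, which is not part of the comparison but enters the shared estimate of spread. With the replicate number as a block the count was 0, beside 0.0225% of all genes. With a score of B cell genes as a covariate it was 0, beside 0.0451%. In a fit of the compared groups alone it was 10, beside 33.4%. In a bulk tissue, more cells of a type and more RNA per cell cannot be told apart.

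**Figure D1:**
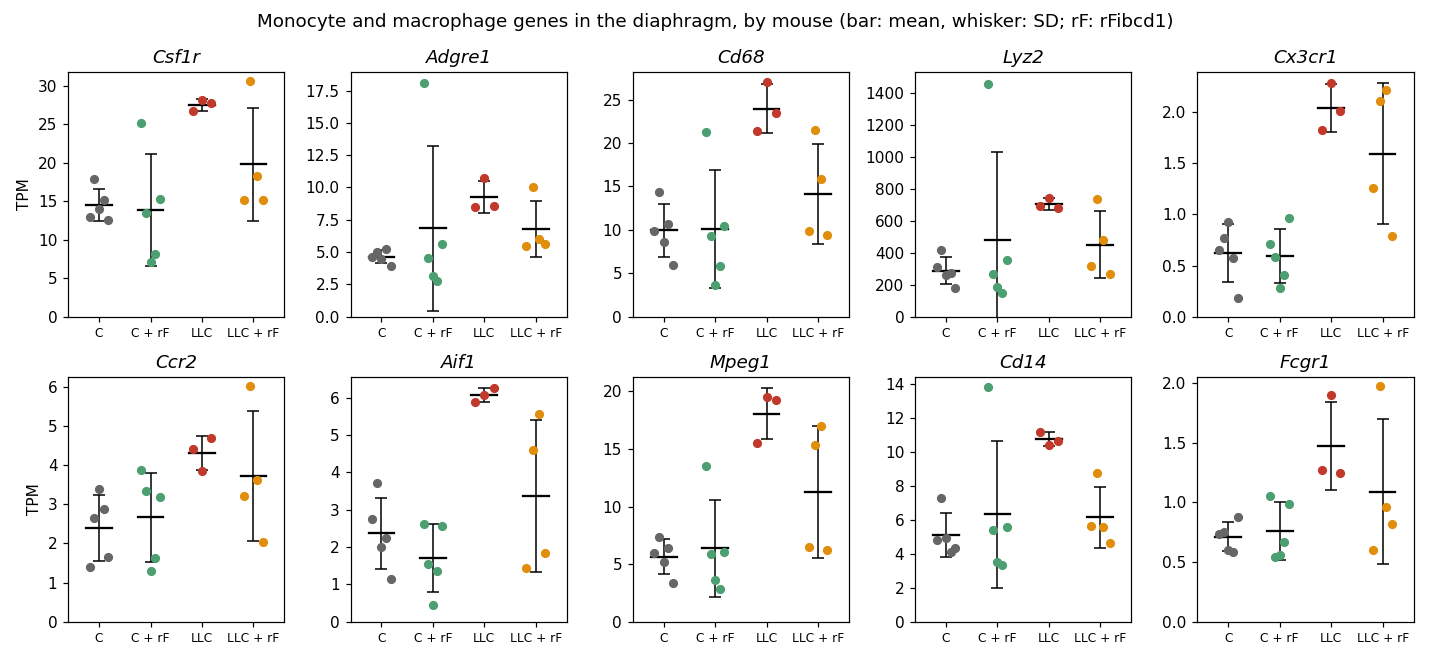
TPM of the 10 genes in 17 mice, with 1 point a mouse, for Control (C, n = 5), Control + rFibcd1 (C + rF, n = 5), LLC (n = 3) and LLC + rFibcd1 (LLC + rF, n = 4), with bars for means and whiskers for SDs, cut at 0 for Lyz2 in Control + rFibcd1. In every panel the 3 LLC mice lie above the 5 Control mice, whereas the position of the LLC + rFibcd1 mice differs from gene to gene, and Control + rFibcd1 replicate 1 reaches 1459 TPM for Lyz2.

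The first group of genes encodes receptors through which monocytes and macrophages receive growth and migration signals. Csf1r is the receptor of CSF1 and IL-34, on which survival of the lineage depends. In the 5 Control mice Csf1r stood at 12.98, 17.85, 14.0, 15.2 and 12.6 TPM, and in the 5 Control + rFibcd1 mice at 25.2, 13.4, 7.08, 8.16 and 15.3 TPM. The values in LLC were 26.7, 28.2 and 27.8 TPM, and those in LLC + rFibcd1 were 15.1, 30.6, 18.3 and 15.2 TPM. The LLC mice lay within a narrow band above all Control mice, and 1 of the 4 LLC + rFibcd1 mice, replicate 2, was above the LLC mice. The log2 change was 0.89 ± 0.31 (SE, adjusted p = 0.0366, limma) in LLC against Control and 0.56 ± 0.28 (SE, adjusted p = 0.203, limma) in LLC + rFibcd1 against Control + rFibcd1. Exons of Csf1r share 873 of 5774 bases with Hmgxb3 on the other strand, and how the counting treated strand was not settled by the sources.

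Cx3cr1 (chr9:119901616-120069879 in GENCODE vM21), the receptor of the membrane-bound chemokine fractalkine, marks non-classical monocytes and many tissue macrophages. Cx3cr1 was measured at 0.649, 0.774, 0.926, 0.577 and 0.177 TPM in the 5 Control mice and at 0.708, 0.587, 0.278, 0.410 and 0.961 TPM in the 5 Control + rFibcd1 mice. The 3 LLC mice had 1.83, 2.29 and 2.01 TPM, and the 4 LLC + rFibcd1 mice had 1.26, 2.11, 2.22 and 0.785 TPM. No tumor-free mouse reached 1 TPM, and 6 of the 7 tumor-bearing mice passed it. The mean was 2.04 ± 0.232 TPM (SD, n = 3) in LLC, 3.29 times that of Control. The log2 change was 0.93 ± 0.20 (SE, adjusted p = 0.0104, limma) in mock-injected and 0.68 ± 0.18 (SE, adjusted p = 0.0350, limma) in rFibcd1-injected mice. Since Cx3cr1 entered the test through tumor-bearing mice alone, the call among rFibcd1-injected mice is no support on its own, and with no filter its adjusted p there was 0.0532 in limma.

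Ccr2 (chr9:124101950-124113557) binds CCL2 and is needed for classical monocytes to leave the marrow. Its level in Control was 1.41, 2.64, 3.38, 2.88 and 1.66 TPM, and in Control + rFibcd1 3.86, 3.35, 1.30, 1.64 and 3.18 TPM. LLC mice stood at 4.40, 3.84 and 4.69 TPM and LLC + rFibcd1 mice at 3.215, 6.01, 3.62 and 2.04 TPM. All LLC mice were above the Control mice, but the lowest LLC mouse was close to the highest Control mouse, and the highest value of all was that of LLC + rFibcd1 replicate 2. The log2 change of 0.68 ± 0.28 (SE, adjusted p = 0.0730, limma) in LLC against Control did not pass, and the pooled contrast of tumor-bearing against tumor-free mice gave 0.50 ± 0.19 (SE, adjusted p = 0.0447, limma). That pooled call was lost with 10 of the 17 mice left out in turn, with adjusted p between 0.0159 and 0.098 over all of them. It held in 2 of 8 other settings of the limma fit, with adjusted p between 0.0459 and 0.635.

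The second group encodes surface receptors of mature macrophages. Adgre1 (chr17:57358691-57483527) encodes F4/80, the adhesion G protein-coupled receptor by which mouse macrophages are commonly identified. Adgre1 was measured at 4.598, 4.96, 4.43, 5.23 and 3.90 TPM in the 5 Control mice and at 18.1, 4.54, 3.16, 2.72 and 5.62 TPM in the 5 Control + rFibcd1 mice. The 3 LLC mice had 8.50, 10.7 and 8.595 TPM, and the 4 LLC + rFibcd1 mice had 5.48, 10.05, 5.99 and 5.64 TPM. The Control mice were close to each other and every tumor-bearing mouse was above them, whereas Control + rFibcd1 replicate 1 was at 4.70 times the median of the other 4 mice of the group. The log2 change of 0.87 ± 0.38 (SE, adjusted p = 0.0851, limma) in LLC against Control did not pass with all mice and had an adjusted p of 0.00599 in the limma fit without that mouse, the lowest with any mouse left out (range 0.00599 to 0.180).

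Cd14 is the co-receptor that hands bacterial lipopolysaccharide to TLR4. Its level in Control was 4.78, 7.29, 4.94, 4.10 and 4.32 TPM, and in Control + rFibcd1 13.8, 5.39, 3.515, 3.31 and 5.58 TPM. LLC mice stood at 11.2, 10.4 and 10.65 TPM and LLC + rFibcd1 mice at 5.61, 8.76, 5.55 and 4.64 TPM. The LLC mice were above all Control and all LLC + rFibcd1 mice, and again Control + rFibcd1 replicate 1 was the highest of all 17. Cd14 rose by 0.97 ± 0.31 (SE, adjusted p = 0.0277, limma) in LLC against Control. It was 1 of the 2 genes, with Aif1, for which every LLC mouse was above every LLC + rFibcd1 mouse, a pattern that 9.3% of all genes tested showed.

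Fcgr1 (chr3:96282909-96293969) encodes CD64, the high-affinity Fc receptor for IgG. In the 5 Control mice Fcgr1 stood at 0.738, 0.751, 0.597, 0.587 and 0.879 TPM, and in the 5 Control + rFibcd1 mice at 1.055, 0.546, 0.557, 0.665 and 0.984 TPM. The values in LLC were 1.27, 1.89 and 1.245 TPM, and those in LLC + rFibcd1 were 0.6025, 1.97, 0.959 and 0.817 TPM. The LLC mice lay above the Control mice, and 1 LLC + rFibcd1 mouse was above all LLC mice. With 36 to 128 reads in a mouse, Fcgr1 had among the lowest values of the 10. Its log2 change was 0.52 ± 0.17 (SE, adjusted p = 0.0294, limma) in LLC against Control.

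The third group encodes proteins of the phagosome, the lysosome and the cytoskeleton. Cd68 (chr11:69664213-69666153) encodes macrosialin, a glycoprotein of late endosomes and lysosomes. Its level in Control was 9.84, 14.4, 8.64, 10.7 and 5.99 TPM, and in Control + rFibcd1 21.2, 9.24, 3.63, 5.81 and 10.4 TPM. LLC mice stood at 21.4, 27.0 and 23.4 TPM and LLC + rFibcd1 mice at 9.865, 21.6, 15.9 and 9.35 TPM. The LLC mice were at 2.41 times the Control mean, and LLC + rFibcd1 replicates 1 and 4 were within the Control range. The log2 change was 1.23 ± 0.40 (SE, adjusted p = 0.0290, limma) in LLC against Control and 0.58 ± 0.37 (SE, adjusted p = 0.299, limma) in the rFibcd1-injected mice.

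Lyz2 (chr10:117277331-117282321) encodes lysozyme M, an enzyme that cuts bacterial cell walls and that neutrophils also make. In the 5 Control mice Lyz2 stood at 314, 415, 260, 272 and 178 TPM, and in the 5 Control + rFibcd1 mice at 1459, 267, 188, 150.5 and 353 TPM. The values in LLC were 691.5, 746 and 679 TPM, and those in LLC + rFibcd1 were 319, 736.5, 479 and 267 TPM. The LLC mice were close to each other and above all Control mice. Control + rFibcd1 replicate 1 was at 6.41 times the median of the other 4 mice of its group, and LLC + rFibcd1 replicate 4 was below the Control mean. The log2 change of 1.34 ± 0.56 (SE, adjusted p = 0.0699, limma) in LLC against Control did not pass in the fit of all mice and had an adjusted p of 0.00866 in limma without that mouse, the lowest with any mouse left out (range 0.00866 to 0.159). The neighbouring gene Lyz1 (chr10:117287797-117292868) is near-identical, and counting can divide reads between such copies. Lyz1 averaged 18.4 ± 3.17 TPM (SD, n = 5) in Control and 43.0 ± 10.2 TPM (SD, n = 3) in LLC, well under Lyz2.

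Mpeg1 (chr19:12460779-12465283) encodes perforin-2, a pore-forming protein of phagocytes. Mpeg1 was measured at 5.94, 7.34, 5.21, 6.44 and 3.38 TPM in the 5 Control mice and at 13.5, 5.90, 3.61, 2.81 and 6.09 TPM in the 5 Control + rFibcd1 mice. The 3 LLC mice had 15.5, 19.5 and 19.2 TPM, and the 4 LLC + rFibcd1 mice had 6.48, 15.3, 17 and 6.24 TPM. The mice of the LLC + rFibcd1 group split, with replicates 2 and 3 near or within the LLC range and replicates 1 and 4 within the Control range. Mpeg1 had the largest log2 change of the 10 in LLC against Control, 1.54 ± 0.39 (SE, adjusted p = 0.0133, limma), and 3.19 times the Control mean. In rFibcd1-injected mice the change was 0.77 ± 0.36 (SE, adjusted p = 0.174, limma).

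Aif1 (chr17:35170991-35176068) encodes IBA1, an actin-binding protein of macrophages and microglia. In the 5 Control mice Aif1 stood at 2.75, 3.70, 1.99, 2.25 and 1.135 TPM, and in the 5 Control + rFibcd1 mice at 2.62, 1.54, 0.444, 1.37 and 2.56 TPM. The values in LLC were 5.89, 6.065 and 6.26 TPM, and those in LLC + rFibcd1 were 1.45, 4.61, 5.57 and 1.84 TPM. The 3 LLC mice were close to each other, whereas the LLC + rFibcd1 mice ranged from below the Control median to just under the LLC mice. The log2 change was 1.12 ± 0.35 (SE, adjusted p = 0.0248, limma) in LLC against Control and -0.82 ± 0.36 (SE, adjusted p = 0.211, limma) in LLC + rFibcd1 against LLC.

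**Figure D2:**
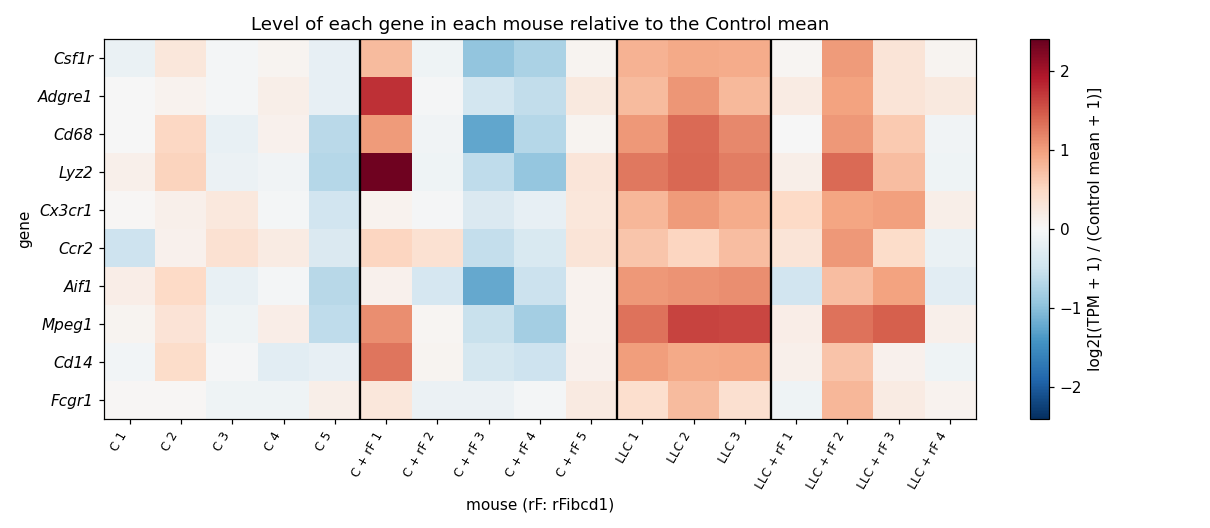
Level of the 10 genes (rows) in each of 17 mice (columns), as log2 of TPM + 1 relative to the Control mean plus 1, with red higher and blue lower and lines between the groups. The LLC columns are red throughout, Control + rFibcd1 replicate 1 is reddest for Lyz2 and Adgre1, and LLC + rFibcd1 replicates 2 and 3 resemble LLC more than replicates 1 and 4 do.

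Among rFibcd1-injected mice, LLC + rFibcd1 against Control + rFibcd1, 1 of the 10 genes rose, Cx3cr1, where 7.02% of all genes were called higher. Of the 8 genes that did not enter the test mainly through tumor-bearing mice, 0 passed in limma, and Mpeg1 alone had an unadjusted p under 0.05. At an unadjusted p under 0.05, Cx3cr1 and Mpeg1 were higher, beside 24.9% of all genes. All 10 changes were positive, between 0.09 for Cd14 and 0.77 for Mpeg1, with a median of 0.46 beside 0.12 over all genes. The change of Cd14 was within its SE of 0.29 and turned negative under median-ratio scaling and quantile normalization. Without Control + rFibcd1 replicate 1 the count was 4, Csf1r, Adgre1, Cx3cr1 and Mpeg1, where 20% of all genes were called higher. It was 0 without Control + rFibcd1 replicates 2, 3 or 4 and without LLC + rFibcd1 replicates 2 or 3, and 0 with each of 9 other settings of the processing. In those fits 1.38% to 11.3% of all genes were called higher. The exact permutation test of rank sums gave an unadjusted p of 0.0317 for Cx3cr1 and of 0.0635 to 0.556 for the other 9 genes.

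The comparison of the treated with the mock-injected tumor-bearing mice, LLC + rFibcd1 against LLC, asks whether the protein moved these genes in mice with tumors. All 10 genes were lower on average and none passed limma's test, where 0.113% of all genes were called in either direction. At an unadjusted p under 0.05, Aif1 and Cd14 were lower, beside 17.3% of all genes. The changes ran from -0.82 for Aif1 to -0.23 for Ccr2, with a median of -0.63 beside -0.12 over all genes. The change of Cd14 was -0.75 ± 0.33 (SE, adjusted p = 0.209, limma). Markers of several other cell types were also lower on average, with a median of -1.73 for B cells, -1.19 for T cells, -1.03 for adipocytes, -0.85 for mast cells and -0.60 for the mesothelium. Neutrophil markers had a median of 0.10, myofiber markers of 0.10 and endothelial markers of 0.15, with 0 of 6, 1 of 10 and 2 of 6 higher at an unadjusted p under 0.05. None of these lists had a gene that passed in limma, and at an unadjusted p under 0.05 the markers lower were 4 of 9 for B cells, 7 of 9 for T cells, 0 of 6 for adipocytes, 4 of 6 for mast cells and 0 of 6 for the mesothelium. Their part in the values of the 10 genes was not tested. The spread within LLC + rFibcd1 was wide: the SD of Csf1r was 7.36 TPM in that group and 0.773 TPM in LLC.

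The 4 LLC + rFibcd1 mice did not behave alike. Replicate 2 was above every Control mouse for 10 of the 10 genes and replicate 3 for 9, beside 49.9% and 42.1% of all genes tested. Replicate 1 was above every Control mouse for 2 genes and replicate 4 for 1, beside 17.6% and 18.8% of all genes. Replicates 2 and 3 also differed from each other: replicate 2 had 30.6 TPM of Csf1r and 10.1 TPM of Adgre1, against 18.3 and 5.99 TPM in replicate 3, whereas Cx3cr1, Aif1 and Mpeg1 were higher in replicate 3. The genes of resident macrophages, such as Vsig4, a complement receptor, and Timd4, which binds phosphatidylserine, were at 15.8 and 9.35 TPM in replicate 2 and at 3.37 and 5.14 TPM in replicate 3. These 2 genes were picked after their values were seen. The summed level of the 9 B cell markers ran the other way, 143.7 TPM in replicate 2 and 317.1 TPM in replicate 3.

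Against the Control mice, the LLC + rFibcd1 mice had 0 of the 10 genes past limma's test, where 2.07% of all genes were called higher. At an unadjusted p under 0.05, Cx3cr1 and Mpeg1 were higher, beside 13.9% of all genes. Cx3cr1 came closest at 0.66 ± 0.18 (SE, adjusted p = 0.0658, limma), and it passed without LLC + rFibcd1 replicate 4, when the count was 1. It is the gene that entered the test through tumor-bearing mice alone, so this is no support on its own, and with no filter its adjusted p was 0.0964 in limma. All 10 changes were positive, with a median of 0.44 beside 0.06 over all genes.

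In tumor-free mice rFibcd1 moved none of the 10 genes past limma's threshold in Control + rFibcd1 against Control, in which 0% of all genes were called in either direction. At an unadjusted p under 0.05 the count was 0 of 10, beside 4.39% of all genes. The changes lay between -0.34 for Aif1 and 0.25 for Lyz2 and had SEs of 0.15 to 0.48. Without Control + rFibcd1 replicate 1 all 10 changes were negative, with Lyz2 at -0.29, Adgre1 at -0.20 and Mpeg1 at -0.27, and 0 passed. Replicates 3 and 4 of Control + rFibcd1 were below every Control mouse for 7 and 6 of the 10 genes, beside 49.9% and 53.1% of all genes tested. The interaction of tumor and rFibcd1, which asks whether the tumor effect differed between rFibcd1 and mock injection, was called for 0 of the 10 and for 0% of all genes in limma, and at an unadjusted p under 0.05 for 0 of the 10 and 8.58% of all genes. Its estimate was negative for all 10, from -1.01 ± 0.76 for Lyz2 to -0.24 ± 0.27 for Cx3cr1. Since none passed, a smaller tumor effect under rFibcd1 was not shown for any of them. The comparisons of LLC + rFibcd1 with LLC, of LLC with Control and of the interaction share mice.

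**Figure D3:**
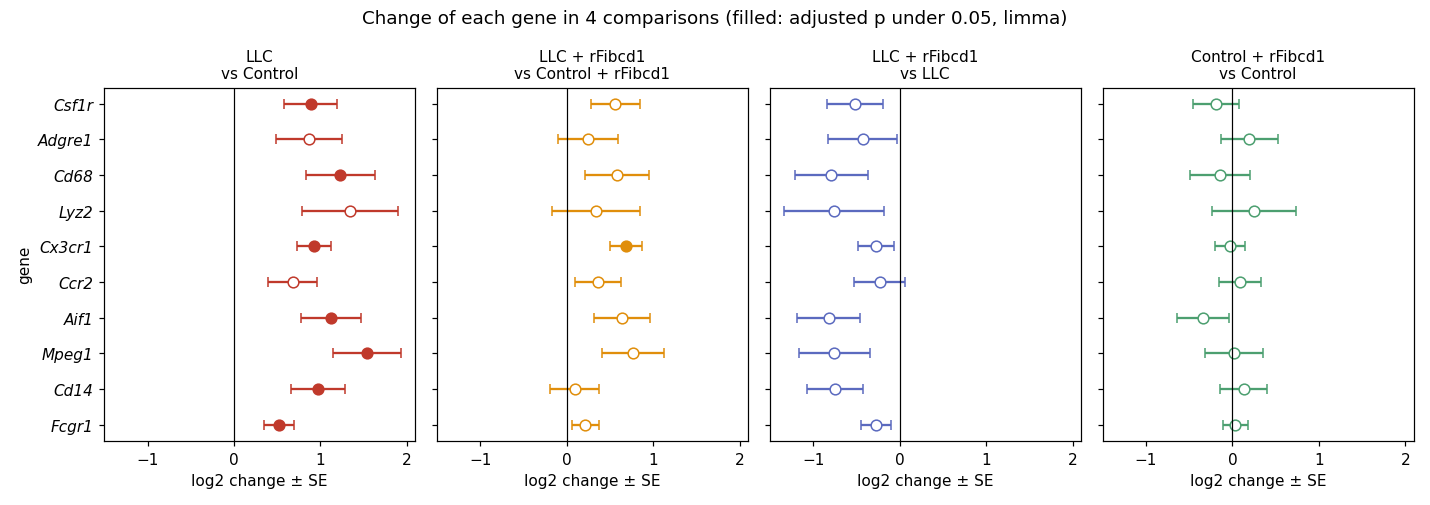
Log2 change with its SE for the 10 genes in 4 comparisons, on the log2(TPM + 1) scale of the limma fit, with filled points where the adjusted p is under 0.05. In LLC vs Control 7 points are filled and all lie above 0, in LLC + rFibcd1 vs Control + rFibcd1 1 is filled, and in the 2 comparisons of rFibcd1 with mock injection none is.

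Control + rFibcd1 replicate 1 stood apart from the other 4 mice of its group. It had 1459 TPM of Lyz2, 18.1 of Adgre1, 13.8 of Cd14, 21.2 of Cd68, 13.5 of Mpeg1 and 25.2 of Csf1r, all above the other 4 mice of the group and between 2.33 and 6.41 times their median. Cx3cr1, Ccr2, Aif1 and Fcgr1 in the same mouse were at 1.42, 1.60, 1.80 and 1.73 times that median, and Cx3cr1 was lower there than in replicate 5. Over all 13305 genes tested the median of this ratio was 1.14, and 9.67% of genes were above 2. Of the 8 markers of large peritoneal macrophages, the cells that live free in the peritoneal cavity, 7 were above 2 times the median, and their summed level was 180.9 TPM in this mouse against 31.1 to 58.4 TPM in the other 4 mice and 75.7 to 87.2 TPM in LLC. Among them Alox15, a lipoxygenase named after its value was seen, was at 77.4 TPM, against 1.48 to 8.73 TPM in the other 4 mice. All 9 B cell markers and 8 of 9 T cell markers were also above 2 times the median, as were 5 of 6 mesothelial markers, 8 of the 9 neutrophil and 4 of the 5 adipocyte markers whose median was not 0, with median ratios of 2.67, 4.18 and 5.16. Of the others, the adipocyte marker Ucp1, a mitochondrial uncoupler of brown fat named after its value was seen, was at 127.9 TPM here against a median listed at 0, and the neutrophil marker Ly6g was at 0.0439 TPM against 0. The neutrophil markers did not set this mouse apart by their sum, which was 29.9 TPM here and 81.2 TPM in replicate 3 of the group. None of 10 myofiber, 6 endothelial or 6 fibroblast markers was above 2 times the median. The part of these cells in the level of the 10 genes was not tested.

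Markers of other immune cells also differed between the mice. The 9 B cell markers all rose in LLC against Control, where 29.7% of all genes did, with a median log2 change of 2.47. Their summed level was 252 to 323 TPM in LLC, 2.68 to 109 in Control, 3.91 to 155 in Control + rFibcd1 and 20.1 to 317 in LLC + rFibcd1. Of these markers Cr2 alone was listed at 0, in 1 Control mouse. The 5 NK cell markers summed to 3.98 TPM or less in every mouse and none was tested. The T cell markers rose for 8 of 9, with sums of 39.1 to 63.7 TPM in LLC and 3.23 to 23.4 in Control, and the neutrophil markers for 6 of the 6 tested, of 10 listed, with S100a9 at a log2 change of 3.33 ± 0.85 (SE, adjusted p = 0.0135, limma). Of the T cell markers 4, and of the neutrophil markers tested 2, did not reach 1 TPM in 3 tumor-free mice and so entered the test mainly through tumor-bearing mice. Without them the counts were 5 of 5 and 4 of 4. The neutrophil markers summed to 51.7 to 113.7 TPM in LLC, 57.9 to 218.8 in LLC + rFibcd1, 5.17 to 17.5 in Control and 5.36 to 81.2 in Control + rFibcd1. Ly6g, a defining neutrophil marker named for its zeros, was listed at 0 in 4 of 5 Control and 3 of 5 Control + rFibcd1 mice. Dendritic cell markers rose for 4 of the 6 tested, of 9 listed, and for 3 of 5 without the marker that entered through tumor-bearing mice, with a median of 0.71, led by Ccr7, a homing receptor, at 1.61 ± 0.57 (SE, adjusted p = 0.0402, limma). Adipocyte markers had a median of 1.61 and mesothelial markers of 0.67, and 0 of 6 passed in each in limma, with 2 and 0 at an unadjusted p under 0.05. With the mean level of the B cell markers as a covariate, the changes in LLC against Control were between -0.03 for Lyz2 and 0.49 for Cx3cr1, 0 of the 10 passed, and 0.0451% of all genes were called higher. B cell level moved with the tumor in mock-injected mice, so their parts cannot be told apart by that fit.

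**Figure D4:**
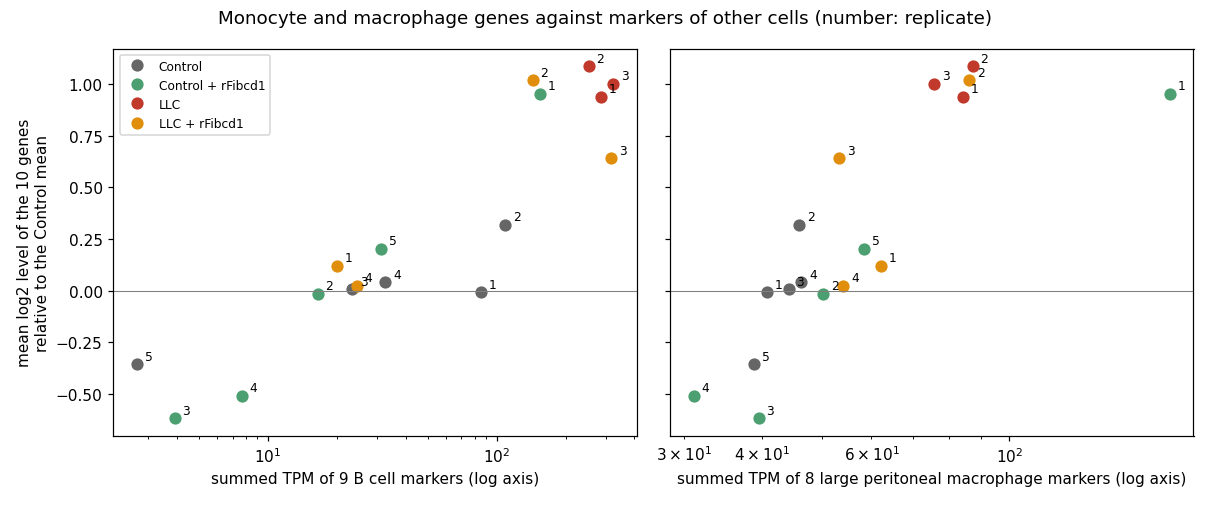
Mean log2 level of the 10 genes relative to the Control mean (vertical) against the summed TPM of 9 B cell markers (left) and of 8 large peritoneal macrophage markers (right), with log horizontal axes and 1 point a mouse with its replicate number. Control + rFibcd1 replicate 1 lies far to the right in the right panel at 180.9 TPM, and LLC + rFibcd1 replicates 1 and 4 lie with the Control mice in the left panel.

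Across the 17 mice the 10 genes varied together. The Pearson correlation of log2(TPM + 1) between members ran from 0.61 to 0.97 over the 45 pairs, with a median of 0.83, and after removal of the group means from 0.43 to 0.96 with a median of 0.73. The closest pairs were Csf1r with Cd68 (r = 0.97) and Adgre1 with Lyz2 (r = 0.97), and the loosest Adgre1 with Cx3cr1 (r = 0.61). Without Control + rFibcd1 replicate 1 the last of these was 0.89. The mice share their groups and their scaling, so these values describe the libraries and carry no test.

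Outside the 10, the genes whose pattern was most like their mean level over the 17 mice were Tlr7, Pirb, Spi1, Cd84, Slc11a1, C1qc, C1qb, C1qa, Tbxas1 and Snx2, with r from 0.98 to 0.97. Tlr7 senses single-stranded RNA in endosomes, Spi1 encodes PU.1, Slc11a1 encodes a metal transporter of the phagosome, and C1qa, C1qb and C1qc the chains of complement C1q. C1qa stood at 61.0 ± 16.9 TPM (SD, n = 5) in Control, 63.2 ± 40.6 TPM (SD, n = 5) in Control + rFibcd1, 130.9 ± 16.04 TPM (SD, n = 3) in LLC and 87.5 ± 36.0 TPM (SD, n = 4) in LLC + rFibcd1. Spi1 was lower, at 3.14 ± 1.02 TPM (SD, n = 5) in Control and 8.70 ± 0.47 TPM (SD, n = 3) in LLC.

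Other genes of the lineage were counted by list in LLC against Control, each beside 29.7% of all genes called higher and the median log2 change of 0.16 over all genes. Of the 8 ligands that recruit or sustain these cells, 3 rose: Ccl5 with 2.17 ± 0.60 (SE, adjusted p = 0.0166), Ccl8 with 2.03 ± 0.52 (SE, adjusted p = 0.0137) and Ccl12 with 0.80 ± 0.29 (SE, adjusted p = 0.0451) in limma, all of them chemokines. Of 10 transcription factors of the lineage 4 rose, and their median was 0.35. They included Irf8, a factor needed for monocyte development, at 1.39 ± 0.40 (SE, adjusted p = 0.0181, limma), and Spi1 at 1.26 ± 0.37 (SE, adjusted p = 0.0201, limma). All 9 myeloid adaptor and leukocyte genes measured rose, with a median of 1.68, led by Coro1a, an actin regulator of all leukocytes, at 2.20 ± 0.66 (SE, adjusted p = 0.0220, limma).

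Lists of monocyte and macrophage subsets were counted separately. Of 8 genes of classical monocytes 6 rose, with a median of 1.62, led by Plac8 at 2.30 ± 0.68 (SE, adjusted p = 0.0206, limma) and Hp at 2.30 ± 0.83 (SE, adjusted p = 0.0429, limma). Hp encodes haptoglobin, which fat cells also make. Of 10 genes of resident macrophages 2 rose, Cd209f at 1.52 ± 0.56 (SE, adjusted p = 0.0465) and Timd4 at 1.36 ± 0.49 (SE, adjusted p = 0.0431) in limma, and the median of the list was 0.62. Of the 6 genes of non-classical monocytes tested, of 8 listed, 3 rose, and of the 7 tested markers of large peritoneal macrophages 1 rose, Timd4, which the resident list also holds. Fc receptors and TLR4 partners rose for 6 of 8, led by Fcgr2b, the inhibitory IgG receptor, at 1.17 ± 0.31 (SE, adjusted p = 0.0151, limma). Phagosome and lysosome genes rose for 7 of 12, led by Ctss, cathepsin S, at 1.67 ± 0.53 (SE, adjusted p = 0.0260, limma). Of the last 2 lists 1 gene each entered the test mainly through tumor-bearing mice, and without it the counts were 5 of 7 and 6 of 11. No difference between these lists was tested.

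The same lists were counted among rFibcd1-injected mice, where 7.02% of all genes were called higher. Of the 8 ligands 2 rose, Ccl8 at 2.23 ± 0.48 (SE, adjusted p = 0.0126, limma) and Ccl2, the ligand of CCR2, at 0.66 ± 0.19 (SE, adjusted p = 0.0488, limma). None of the 10 transcription factors, the 9 adaptor genes, the 10 resident macrophage genes or the 8 classical monocyte genes passed in limma, and at an unadjusted p under 0.05 the counts higher were 2, 3, 0 and 2. Neutrophil markers rose for 5 of the 6 tested, and for 3 of the 4 that reached 1 TPM in 3 tumor-free mice, led by S100a9 at 2.95 ± 0.78 (SE, adjusted p = 0.0331, limma). The B cell markers rose for 0 of 9, at an unadjusted p under 0.05 also for 0, with a median of 1.16, and so did the T cell markers, with a median of 0.70. Of the Fc receptors and TLR4 partners 1 of 8 rose, Myd88, an adaptor of Toll-like receptors, and of the phagosome and lysosome genes 1 of 12, Lamp1. Of the 6 genes tested from the list of non-classical monocytes, 1 fell, Eno3, where 1.04% of all genes fell. Eno3 is the enolase of muscle, at 2025 TPM in Control + rFibcd1 replicate 1 and a median of 1744 TPM in the rest of that group. Its fall is therefore no result about monocytes. Of the 7 markers of large peritoneal macrophages none passed, with 1 higher and 1 lower at an unadjusted p under 0.05. Endothelial markers rose for 4 of 6, led by Pecam1 at 0.49 ± 0.06 (SE, adjusted p = 0.000878, limma), a junction protein that leukocytes also carry.

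Mitochondrially encoded RNA held 41.3% to 44.3% of the TPM in LLC, 45.9% to 48.4% in Control, 45.4% to 50.4% in Control + rFibcd1 and 43.7% to 46.5% in LLC + rFibcd1, and TPM of all other genes rise where it falls. Rescaling without these genes left 62.9% of all calls in LLC against Control in the upward direction, in place of 83.2%, and median-ratio scaling left 52.7% and quantile normalization 32.2%. The median change over all genes went from 0.16 to 0.07, 0.01 and -0.10 in that order. In tumor-bearing against tumor-free mice the upward share was 86.7%, and it was 68.9%, 52.8% and 35.4% in the same order, and in LLC + rFibcd1 against Control + rFibcd1 it was 87.1%, with 66.1%, 43.9% and 39.2%. The 10 genes were higher in LLC than in Control under each of the 4 scalings, with a median change of 0.70 to 1.02. Of the 10, 7 were called with TPM as deposited, 6 after rescaling without mitochondrially encoded genes, 5 with median-ratio scaling and 6 with quantile normalization, beside 29.7%, 18.7%, 15.6% and 11.3% of all genes. Myofiber genes fell for 4 of 10 and rose for none in LLC against Control, where 6.02% of all genes fell. Myh1 was at -0.64 ± 0.13 (SE, adjusted p = 0.00930, limma). Under quantile normalization 2 of the 10 myofiber genes were called, beside 23.9% of all genes called lower and 11.3% called higher.

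**Figure D5:**
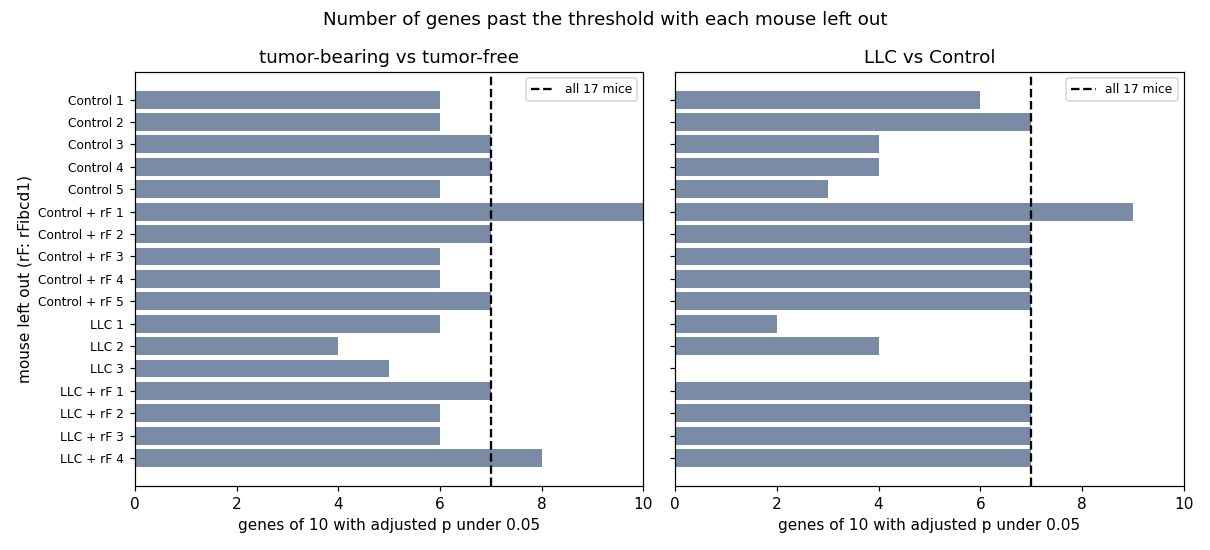
How many of the 10 genes limma called (horizontal) with each of the 17 mice left out in turn (vertical), for tumor-bearing vs tumor-free mice (left) and LLC vs Control (right), with the count over all mice, 7, as a dashed line. Leaving out Control + rFibcd1 replicate 1 gives 10 on the left, and leaving out LLC replicate 3 gives 0 on the right.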

How the data were processed

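RNA was isolated with Trizol from the portion of the diaphragm muscle kept for it after removal of the tendons, poly(A) libraries were sequenced, and the authors mapped the reads to the mouse genome build mm10 with CLC Genomics Workbench and deposited 1 table of TPM values per gene and mouse. TPM is scaled to the same sum in each mouse, so a fall in abundant RNA raises the other genes. Whether counting used strand is not given in the sources used here. All columns matched a sample, with 0 without one. Of the 47643 symbols, 24693 were at 0 in every mouse, and 94.7% matched GENCODE vM21.

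Values were tested as log2(TPM + 1) with limma 3.58.1 in R 4.3.3 (empirical Bayes with a trend, two-sided) in 1 fit of 4 group means with 13 residual degrees of freedom, over the 13305 genes at 1 TPM or more in at least 3 mice. P-values were adjusted by Benjamini-Hochberg over all of them with a threshold of 0.05. The study itself used rank tests, whose normal approximation is poor at 3 to 5 mice, so an exact permutation test of rank sums (two-sided, unadjusted) stands beside limma for single genes. The scripts were tested on simulated data.

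TPM keeps no counts. Depth was estimated from the spacing of low TPM values. Between 82.3% and 85.4% of them lay within 0.02 of a whole number of reads, so no count test was run, and the estimated total of 50650000 to 54510000 reads per mouse, like the reads behind each gene, is approximate.

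The 10 genes and the 20 other gene lists (162 genes) were chosen with earlier results of these data known. All 10 genes are named. From each other list at most the 3 called genes with the largest change are named, and of all other genes the 10 most correlated with the mean z-score of the 10 over 17 mice. Lyz1 is named as a near-identical copy and Hmgxb3 as an overlapping gene. Vsig4, Alox15, Ucp1, Ly6g and Cr2, and Timd4 where its level in single mice is given, were picked after their values were seen. Itgam is not analysed here. The alternatives were a pseudocount of 0.1, no filter, a filter at 5 TPM, median-ratio scaling, quantile normalization, rescaling without mitochondrially encoded genes, a fit of the compared groups alone, no trend, a replicate block, a score of B cell markers as a covariate, and leaving out each mouse in turn. Python 3.11.15 with pandas 2.3.3 was used for summaries, and promoters came from RefSeq (GRCm38.p6).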

Additional observations from a re-analysis of the deposited data

Results flagged for a closer look

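In 30 groups of 4 or 5 mice (the 10 genes in 3 of the groups, since LLC has 3 mice), the gap of the most extreme mouse to its nearest neighbour was divided by the range of the group and compared with Dixon's critical value for that number of mice. A mouse stood apart in 5 of the 30. For normal values chance flags about 1 in 20 groups, but the 10 genes varied together in the same mice. The 30 groups are therefore not independent, and the 2 rates cannot be compared directly. Control + rFibcd1 replicate 1 was the mouse in 3 of them, with a ratio of 0.8114 for Adgre1 (18.1 TPM), 0.8456 for Lyz2 (1459 TPM) and 0.7835 for Cd14 (13.8 TPM), in each the highest of its group. LLC + rFibcd1 replicate 2 stood apart for Adgre1 at 0.8882 (10.1 TPM). Control replicate 2 stood apart for Cd14 at 0.7357 (7.29 TPM).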

How the results depend on the processing

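With tumor-bearing against tumor-free mice, the count of called genes, 7 of 10, was 4 with the filter at 5 TPM, 4 with the replicate block and 1 with the B cell score, beside 41.6%, 24.8% and 3.46% of all genes called higher, and 4 to 10 with a mouse left out. In LLC against Control, also 7, it was 0 with the replicate block and 0 with the B cell score, beside 0.0225% and 0.0451% of all genes, and 0 to 9 with a mouse left out. In the fit of the compared groups alone it was 10, beside 33.4% of all genes. In LLC + rFibcd1 against Control + rFibcd1 the 1 call, Cx3cr1, became 0 with a pseudocount of 0.1, no filter, the filter at 5 TPM, each of the 3 other scalings, the replicate block, the B cell score and the fit of the compared groups alone, and ranged over 0 to 4 with a mouse left out. In LLC + rFibcd1 against Control the range was 0 to 1. The filter at 5 TPM takes Cx3cr1, Ccr2 and Fcgr1 out of the test; for the other settings the cause was not tested. Whether replicate numbers pair the mice was not settled. After removal of the group means, 4 of 22 same-numbered pairs of libraries correlated above 0.1 (r from -0.46 to 0.49). Pairs with different numbers were not set beside them. The replicate block left 3 genes of all tested called higher in LLC against Control.

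Of 709 values under other settings 18 changed sign, none of which was called. With the B cell score these were, in tumor-bearing against tumor-free mice, Lyz2 (-0.16), in LLC against Control Lyz2 (-0.032), in LLC + rFibcd1 against Control + rFibcd1 Adgre1 (-0.11), Lyz2 (-0.32) and Cd14 (-0.22), in LLC + rFibcd1 against LLC Adgre1 (0.082), Lyz2 (0.19), Cx3cr1 (0.034) and Ccr2 (0.076), in Control + rFibcd1 against Control Cd68 (0.029) and Cx3cr1 (0.047), in LLC + rFibcd1 against Control Aif1 (-0.0042), and in the interaction Csf1r (0.010) and Aif1 (0.032). Cd14 in LLC + rFibcd1 against Control + rFibcd1 was -0.019 with median-ratio scaling and -0.070 with quantile normalization, which also gave Ccr2 in LLC + rFibcd1 against LLC 0.0062 and Cx3cr1 in Control + rFibcd1 against Control 0.051. With a mouse left out, 19 of 1190 values changed sign. They were Cd14 in LLC + rFibcd1 against Control + rFibcd1 (-0.069 to 0.39) and, in Control + rFibcd1 against Control, changes whose ranges were -0.42 to 0.00050 for Csf1r, -0.20 to 0.39 for Adgre1, -0.44 to 0.12 for Cd68, -0.29 to 0.53 for Lyz2, -0.14 to 0.049 for Cx3cr1, -0.030 to 0.24 for Ccr2, -0.27 to 0.22 for Mpeg1, -0.16 to 0.28 for Cd14 and -0.024 to 0.079 for Fcgr1.

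Groups of 3 to 5 mice limit what can be called. Cx3cr1, Aif1 and Fcgr1 rest on few reads.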
